A study of Mus musculus with 6 samples.

Results

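The mature arms of the miR-23, miR-27 and miR-24 hairpins were followed in small RNA libraries of mouse dermal fibroblasts, 10 mature miRNAs among the 1907 names counted in each library. They were chosen by name, as the listed arms of Mir23b, Mir27b and Mir24-1 and of their paralogs Mir23a, Mir27a and Mir24-2, and all 10 had enough reads to be tested. Of the 10, 5 come from the Mir23b cluster only, 4 from the Mir23a cluster only, and miR-24-3p from both. The study compared primary fibroblasts of 3 newborn mice with genotype Col1a2Cre-caNrf2, in which a constitutively active Nrf2 mutant is present together with a Cre recombinase, with those of 3 newborn mice with genotype Col1a2Cre-wt (ctrl), which have the Cre without the Nrf2 mutant. All 6 mice carried the Cre, driven in fibroblasts by the Col1a2 promoter, and had a mixed background of 50% C57Bl/6 and 50% FVB/N. Cells were grown for 6 days and taken at passage 1, and total RNA was used for the libraries.

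A miRNA hairpin gives a 5p and a 3p arm, and the arm that is loaded into Argonaute guides it to messenger RNAs mainly through its seed, bases 2 to 8. Paralogs with the same seed are therefore thought to recognise largely the same targets. The miR-23/27/24 hairpins lie side by side in mammalian genomes in a pair of copies and are thought to be cut from shared primary transcripts. miR-27 is known for restraining fat cell differentiation and has been reported in human cells to repress Nrf2 itself, miR-23 and miR-27 for roles in blood vessel growth, and miR-24 for restraining cell-cycle genes.

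The mature sequences below, from RefSeq (GRCm38.p6, the same build as mm10), are shown because the comparison turns on how alike the paralogs are. Capitals mark the seed, and 9 of the 10 members had an entry.
miR-27b-3p: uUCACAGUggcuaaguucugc
miR-27a-3p: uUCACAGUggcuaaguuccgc
miR-27b-5p: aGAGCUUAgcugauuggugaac
miR-27a-5p: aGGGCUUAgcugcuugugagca
miR-23a-3p: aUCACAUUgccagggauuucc
miR-23b-5p: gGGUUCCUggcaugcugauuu
miR-24-1-5p: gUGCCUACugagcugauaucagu
miR-24-2-5p: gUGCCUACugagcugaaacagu
miR-24-3p: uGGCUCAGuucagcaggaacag
The 3p arms of miR-27a and miR-27b share their seed and differ at 1 base, C19U, counted from 1 at the 5′ end of miR-27a-3p. Their 5p arms differ at 8 of 22 bases, the first of them, G3A, inside the seed, so the 5p seeds are not the same. The miR-24-1-5p and miR-24-2-5p arms share a seed and their first 16 bases. miR-24-3p is the same molecule from either cluster and its reads cannot be assigned to one of them. miR-23b-3p had no entry in the table.

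The hairpins are shown next because the arms of each cluster are compared with each other below. Capitals mark the mature arms listed for the hairpin.
Mir23b: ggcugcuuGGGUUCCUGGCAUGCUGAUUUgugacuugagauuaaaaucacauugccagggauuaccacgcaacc
Mir27b: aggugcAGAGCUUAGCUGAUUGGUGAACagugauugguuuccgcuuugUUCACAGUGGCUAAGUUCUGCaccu
Mir24-1: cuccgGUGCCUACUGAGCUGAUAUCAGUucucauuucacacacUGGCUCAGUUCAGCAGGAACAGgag
Mir23a: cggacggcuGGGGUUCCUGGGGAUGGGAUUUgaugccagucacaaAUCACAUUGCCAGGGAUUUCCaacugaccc
Mir27a: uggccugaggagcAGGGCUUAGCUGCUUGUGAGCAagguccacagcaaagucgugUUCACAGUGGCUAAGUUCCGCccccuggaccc
Mir24-2: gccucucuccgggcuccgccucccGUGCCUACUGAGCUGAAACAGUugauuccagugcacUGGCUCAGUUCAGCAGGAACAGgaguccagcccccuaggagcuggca
The Mir23b cluster lies on the plus strand at chr13:63300484-63301275 and spans 792 bases, with 154 bases between Mir23b and Mir27b and 423 between Mir27b and Mir24-1. It sits inside the protein-coding gene 2010111I01Rik, on the same strand, and inside the protein-coding gene Fancc, on the opposite strand. Mir23b overlaps no annotated exon of 2010111I01Rik (GENCODE M21). Mir27b overlaps 1 exon entry and Mir24-1 overlaps 4 exon entries of that gene. An exon present in several transcripts was counted once for each. The Mir23a cluster lies on the plus strand at chr8:84208518-84208921, outside protein-coding genes, and spans 404 bases, with gaps of 79 and 56 bases. The end of Mir24-2 overlaps the start of the lincRNA gene Gm26532, on the same strand. The first 18 bases of miR-23a-3p are also found in the Mir23b hairpin. Reads of the 3p arms that end before the differing bases would therefore fit both paralogs, and how such reads were counted is not given in the sources used here.

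**Figure D1:**
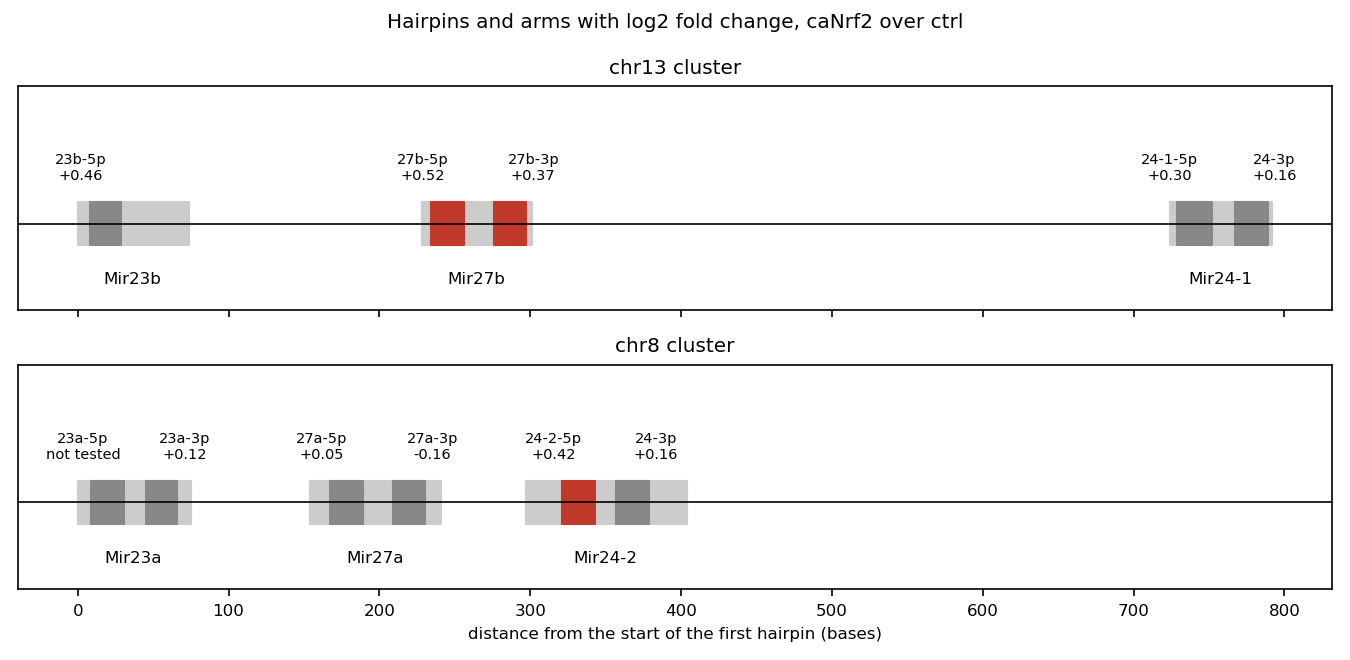
Hairpins (light grey) and mature arms of both clusters against the distance in bases from the start of the first hairpin. Each tested arm carries its log2 fold change, caNrf2 over ctrl. Red arms passed the test, and dark grey arms did not pass or, for miR-23a-5p, were not tested. miR-23b-3p, without an entry in the sequence table, is not drawn, and miR-24-3p carries the same 0.16 in both clusters. The red arms of the chr13 cluster are those of Mir27b, with 0.52 and 0.37, beside the undrawn miR-23b-3p, which was also called (0.46), and the red arm of the chr8 cluster is that of Mir24-2, with 0.42.

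The libraries held 13733970 to 28237159 counts in caNrf2 fibroblasts and 10443268 to 20595024 in ctrl fibroblasts, and levels below are counts scaled to library size with TMM factors (CPM). The 8 listed miRNAs known from fibroblasts were abundant in all libraries, adding up to 479519 to 517266 CPM in caNrf2 and 456737 to 467475 CPM in ctrl libraries. By edgeR 1 of the 8 rose, miR-22-3p (log2 fold change 0.31), and 3 fell, miR-10b-5p (-0.56), miR-199a-5p (-0.51) and miR-199a-3p (-0.41), with a median of -0.12. Over all 697 tested miRNAs, 14.1% were called higher and 11.6% lower, the shares to hold beside this and the next lists. Nrf2 was not measured, since the files hold miRNAs. Of 7 blood cell miRNAs 4 were called higher, their summed level being 648 to 759.6 CPM in caNrf2 and 386 to 476 CPM in ctrl libraries. Most of that sum was miR-486a-5p, which rose 1.38-fold. The leukocyte miRNAs miR-142a-3p, miR-142a-5p and miR-223-3p rose 3.35-fold, 3.60-fold and 3.74-fold, each more than any member did. The rest of the list was not called by edgeR. Its log2 fold changes were 0.48 for miR-451a (adjusted p = 0.114), -0.10 for miR-150-5p (0.693) and -0.998 for miR-144-3p (0.0873). Of 5 muscle miRNAs, 4 were tested and all 4 were higher, with sums of 558 to 737 CPM in caNrf2 and 344 to 421 CPM in ctrl libraries, while miR-1a-3p, typical of muscle fibres, had at most 9 counts in any library. Of 7 epithelial miRNAs, with sums of 1600.3 to 2121 CPM in caNrf2 and 1035 to 1865 CPM in ctrl libraries, 0 were called by edgeR (1 at an unadjusted p under 0.05, and 1 by DESeq2). Of the 2 endothelial ones tested 0 were called by edgeR or DESeq2, also at an unadjusted p under 0.05, with sums of 147 to 171 CPM in caNrf2 and 116 to 165 CPM in ctrl libraries. Whether the presence of such cells bears on the results below was not tested, and in these bulk cultures a change in cell mixture and a change per cell cannot be told apart.

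miR-23b-3p and both arms of Mir27b were higher in caNrf2 fibroblasts, by 1.29-fold to 1.43-fold, while the tested arms of Mir23a and Mir27a were not called in either direction. The exception in the chr8 cluster was miR-24-2-5p, which rose. In all, 4 of the 10 members were called higher and 0 lower by the edgeR quasi-likelihood test at an adjusted p under 0.05, against 14.1% of the 697 tested miRNAs called higher and 11.6% called lower (25.7% in either direction). At an unadjusted p under 0.05 the same counts, 4 and 0, were obtained, and DESeq2 and limma-voom also gave 4 and 0. For 8 of the 10 members the libraries of one genotype were all above those of the other, which held for 41.6% of all tested miRNAs. The median log2 fold change was 0.34 over the members and 0.033 over all tested miRNAs. The members were named by family and not by their values, but they were chosen with earlier results of these data known.

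mmu-miR-27b-3p was by far the most abundant member, and it was the fifth most abundant miRNA of caNrf2 fibroblasts and the tenth of ctrl fibroblasts. It had 35858, 38049 and 34834 CPM in caNrf2 libraries 1, 2 and 3, against 31380, 26197 and 26645 CPM in ctrl libraries 1, 2 and 3. Every caNrf2 library lay above every ctrl library, the nearest being ctrl library 1. The mean level was 36247 ± 1642 CPM in caNrf2 and 28074 ± 2872 CPM in ctrl fibroblasts (SD, n = 3 each), a 1.29-fold rise (log2 fold change 0.37 ± 0.098 SE, edgeR adjusted p = 0.0183). Without any one library its log2 fold change stayed between 0.31 and 0.45, but the call was lost in 4 of these 6 fits, the edgeR adjusted p being 0.0557 without caNrf2 library 1, 0.0709 without caNrf2 library 2, 0.0759 without ctrl library 2 and 0.0774 without ctrl library 3. Its partner arm mmu-miR-27b-5p, far scarcer, had 152, 167 and 174 CPM in caNrf2 libraries and 122, 112 and 110.1 CPM in ctrl libraries. miR-27b-5p rose 1.43-fold (log2 fold change 0.52 ± 0.099 SE, edgeR adjusted p = 0.00367), without overlap of the groups, and stayed called without any one library.

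mmu-miR-27a-3p, which carries the same seed as miR-27b-3p, was not called and its mean was lower. Its level was 3509.6, 3735 and 3394 CPM in caNrf2 libraries and 4223, 3778 and 3866 CPM in ctrl libraries. The ctrl libraries were all higher, but the gap between the closest libraries of the groups, caNrf2 library 2 and ctrl library 2, was small. The log2 fold change was -0.16 ± 0.079 SE, with a 95% interval from -0.33 to 0.017 (edgeR adjusted p = 0.172). Its partner mmu-miR-27a-5p had 82.1, 96.7 and 83.2 CPM in caNrf2 and 90.5, 83.2 and 79.4 CPM in ctrl libraries, so the groups overlapped. The log2 fold change of miR-27a-5p was 0.050, with an interval from -0.21 to 0.31 (edgeR adjusted p = 0.777).

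**Figure D2:**
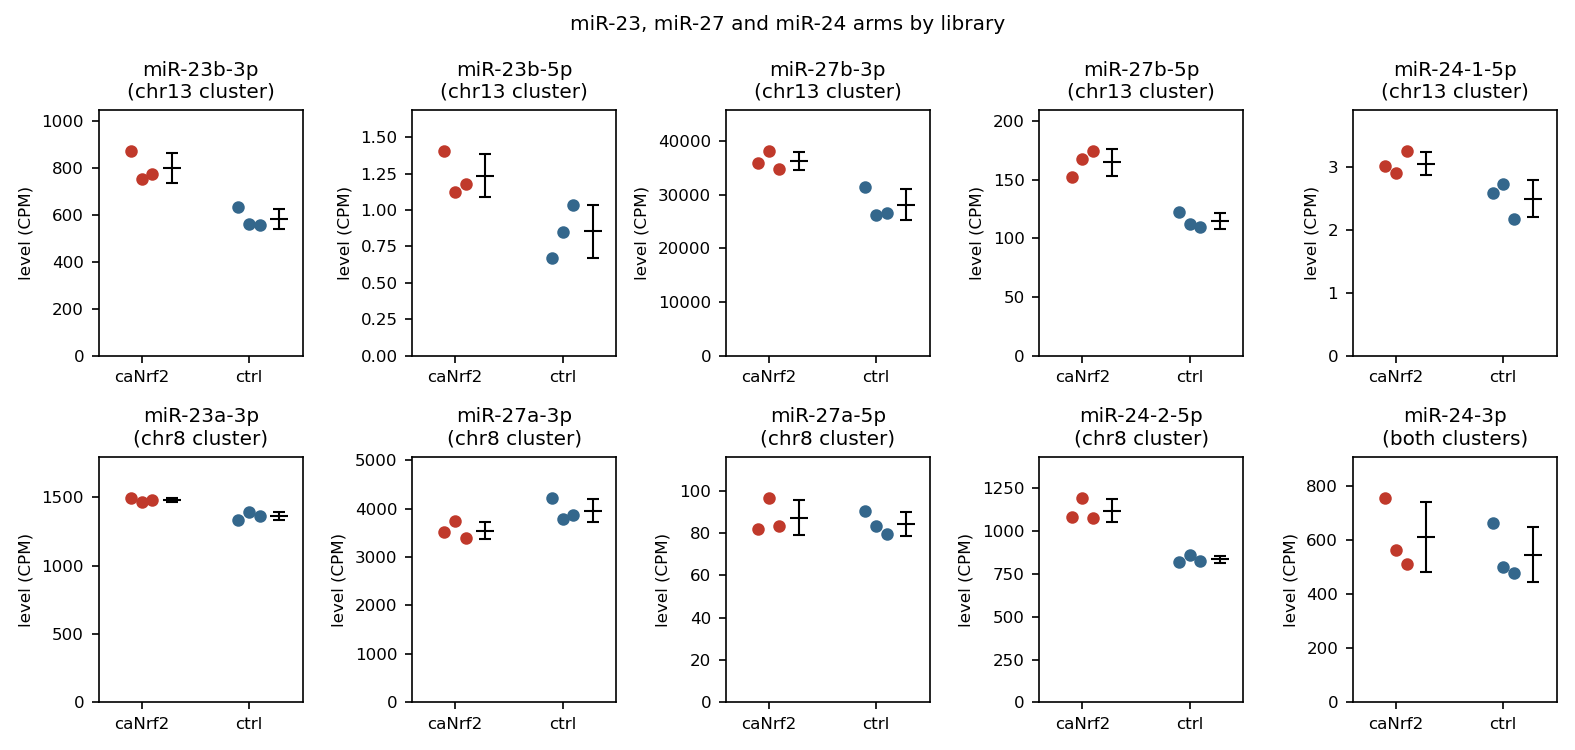
Level in CPM (vertical axes from 0) of each of the 10 arms in the 3 caNrf2 libraries (red, left) and the 3 ctrl libraries (blue, right), with the mean and SD in black beside the points. The groups are separate for all arms but miR-27a-5p and miR-24-3p, and the ctrl libraries are the higher ones only for miR-27a-3p.

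The miR-23 paralogs, counterparts of miR-27 at the upstream end of each cluster, showed a like difference at lower levels. mmu-miR-23b-3p had 871, 754 and 775 CPM in caNrf2 libraries and 633, 560.2 and 556 CPM in ctrl libraries. All caNrf2 values were above all ctrl values, and library 1 was the highest of its group in both genotypes. miR-23b-3p rose 1.37-fold (log2 fold change 0.46 ± 0.087 SE, edgeR adjusted p = 0.00367) and was called in all 14 alternatives, which included each scaling, filter, tool and left-out library. mmu-miR-23a-3p had 1495, 1462 and 1479 CPM in caNrf2 libraries against 1336, 1392 and 1363 CPM in ctrl libraries. These groups did not overlap either, but the difference was small, with a log2 fold change of 0.12 and an interval from -0.031 to 0.27 (edgeR adjusted p = 0.229). The scarce mmu-miR-23b-5p had 20, 27 and 33 counts in caNrf2 libraries and 7, 14 and 21 counts in ctrl libraries, or 1.40, 1.12 and 1.18 CPM against 0.674, 0.852 and 1.04 CPM. Its log2 fold change of 0.46 was close to that of miR-23b-3p, but the interval reached from -0.12 to 1.03 and it was not called (edgeR adjusted p = 0.227). The interval includes both no change and the change of its partner, and whether such a change is detectable at this depth was not tried.

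In the miR-24 hairpins the arm of the chr8 cluster was the one called. mmu-miR-24-2-5p had 1083, 1196 and 1079 CPM in caNrf2 libraries, against 820.2, 859 and 827 CPM in ctrl libraries. The groups were far apart relative to their spread, 1119 ± 66.4 CPM in caNrf2 and 836 ± 20.9 CPM in ctrl fibroblasts (SD, n = 3 each). miR-24-2-5p rose 1.34-fold (log2 fold change 0.42 ± 0.074 SE, edgeR adjusted p = 0.00245) and was called in all 14 alternatives. mmu-miR-24-1-5p, its counterpart from the chr13 cluster, was far scarcer, with 43, 70 and 91 counts in caNrf2 and 27, 45 and 44 counts in ctrl libraries. In CPM it had 3.02, 2.91 and 3.26 in caNrf2 libraries, each above the 2.60, 2.74 and 2.17 of the ctrl libraries. Its log2 fold change was 0.30, with an interval from -0.070 to 0.68 (edgeR adjusted p = 0.218), a range that includes the change of miR-24-2-5p.

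mmu-miR-24-3p, the arm both clusters encode, had 757, 564 and 510.3 CPM in caNrf2 libraries and 662, 499.6 and 478 CPM in ctrl libraries. The groups overlapped, and library 1 was the highest by far in each genotype; these are also the shallowest libraries of their groups. The log2 fold change was 0.16, with an interval from -0.19 to 0.51 (edgeR adjusted p = 0.502). Without caNrf2 library 1 the log2 fold change was -0.030. The counts of miR-24-3p were lower than those of miR-24-2-5p in every library, by a factor of 1.43 to 2.12 in caNrf2 and 1.24 to 1.73 in ctrl libraries. Since reads of miR-24-3p fit both hairpins and their handling is not given in the sources used here, its level relative to the other arms is uncertain.

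**Figure D3:**
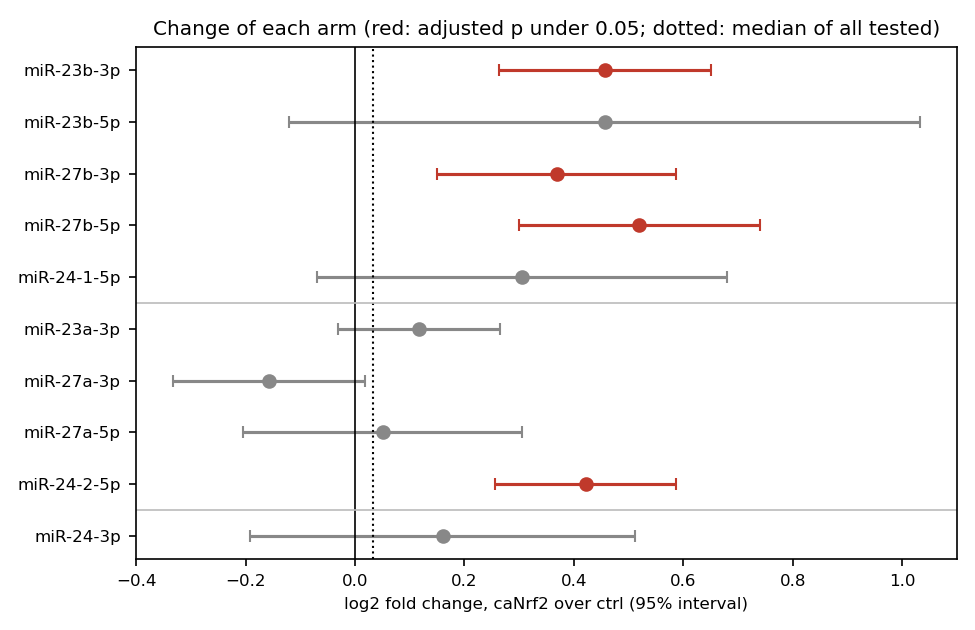
Log2 fold change, caNrf2 over ctrl, of the 10 arms with the 95% interval of the edgeR fit; chr13 arms are at the top, chr8 arms in the middle and miR-24-3p at the bottom. Red arms passed an adjusted p of 0.05, and the dotted line marks the median of all tested miRNAs, 0.033. The 5 chr13 arms lie between 0.30 and 0.52, the 4 chr8 arms between -0.16 and 0.42.

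The order of the mean levels was the same in both genotypes: miR-27b-3p, miR-27a-3p, miR-23a-3p, miR-24-2-5p, miR-23b-3p, miR-24-3p, miR-27b-5p, miR-27a-5p, miR-24-1-5p and miR-23b-5p. Only miR-23b-3p and miR-24-3p, neighbours in that order, overlapped in their ranges, in caNrf2 as in ctrl libraries. Levels of different miRNAs are compared in CPM without division by length, because the 9 members with an entry are 21 to 23 bases long. Together the members took 4.44% ± 0.22 of all counts in caNrf2 and 3.53% ± 0.33 in ctrl fibroblasts (SD, n = 3 each). miR-27b-3p made up 82.3% ± 0.41 of the members' counts in caNrf2 and 78.9% ± 0.89 in ctrl fibroblasts, and miR-27a-3p 8.05% ± 0.058 in caNrf2 and 11.1% ± 0.34 in ctrl fibroblasts. The arms of the chr13 cluster without miR-24-3p summed to 36885, 38974 and 35787 CPM in caNrf2 libraries and to 32139, 26873 and 27314 CPM in ctrl libraries. Those of the chr8 cluster summed to 6169.5, 6490 and 6035 CPM in caNrf2 libraries and to 6469.7, 6113 and 6136 CPM in ctrl libraries, values that overlap. The sum of the chr13 arms was 5.97 ± 0.039 times that of the chr8 arms in caNrf2 fibroblasts and 4.61 ± 0.32 times in ctrl fibroblasts (SD, n = 3 each). Nearly all of the chr13 sum was miR-27b-3p, with means of 36247 of 37215 CPM in caNrf2 and 28074 of 28775 CPM in ctrl fibroblasts.

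Whether the paralogs changed differently was tested directly, with the ratio of their counts within each library, which no scaling factor can alter. The ratio was fitted with limma for all 307 same-arm pairs of tested miRNAs that share a family number, many of which have miRNAs in common, and 15.3% of these pairs were called. The ratio of miR-27b-3p to miR-27a-3p was 10.2, 10.2 and 10.3 in caNrf2 libraries 1, 2 and 3, against 7.43, 6.93 and 6.89 in ctrl libraries 1, 2 and 3. It varied little within a genotype, 10.2 ± 0.039 in caNrf2 and 7.09 ± 0.30 in ctrl fibroblasts (SD, n = 3 each), and the groups were far apart. The ratio was 1.44-fold higher in caNrf2 fibroblasts (log2 difference 0.53 ± 0.073 SE, limma adjusted p = 9.42e-04 over all pairs). It was called in all 11 alternatives, with a limma adjusted p of at most 0.0404, reached without a variance trend.

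The ratio of miR-27b-5p to miR-27a-5p, whose sequences are less alike, was 1.85, 1.73 and 2.09 in caNrf2 libraries and 1.35, 1.35 and 1.39 in ctrl libraries. All caNrf2 libraries were higher, with a log2 difference of 0.47 ± 0.11 SE (limma adjusted p = 0.0173). The call was lost without caNrf2 library 3 (adjusted p = 0.110), ctrl library 1 (0.0539) or ctrl library 3 (0.0553). The ratio of miR-23b-3p to miR-23a-3p was 0.583, 0.516 and 0.524 in caNrf2 libraries and 0.474, 0.403 and 0.408 in ctrl libraries. The groups did not overlap, with a log2 difference of 0.34 ± 0.098 SE (limma adjusted p = 0.0373). The call was lost without caNrf2 library 1 (adjusted p = 0.0839), caNrf2 library 3 (0.106), ctrl library 2 (0.111) or ctrl library 3 (0.143).

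For the miR-24 5p arms no difference was called. The ratio of miR-24-1-5p to miR-24-2-5p was 0.00282, 0.00245 and 0.00304 in caNrf2 libraries and 0.00323, 0.00322 and 0.00265 in ctrl libraries. The groups overlapped, and the log2 difference of -0.13 had an interval from -0.61 to 0.35 (limma adjusted p = 0.785). The groups thus did not overlap in 3 of the 4 member pairs, against 31.3% of all pairs. By a two-sided exact permutation test over 20 assignments each of these 3 pairs had p = 0.1, the smallest that 3 against 3 libraries allow (0.133 adjusted over the 4 pairs), and the miR-24 pair had p = 0.3.

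**Figure D4:**
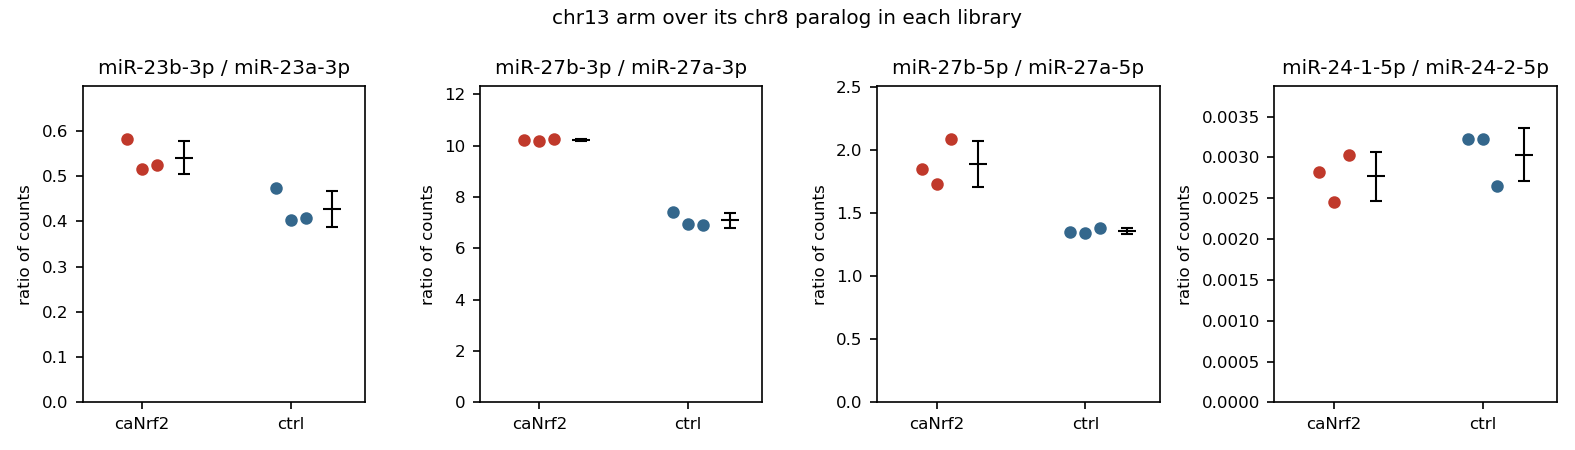
Ratio of the counts of the chr13 arm to its chr8 paralog (vertical axes from 0) in the 3 caNrf2 libraries (red, left) and the 3 ctrl libraries (blue, right), with mean and SD in black. The miR-27 3p ratio sits at 10.2 to 10.3 in caNrf2 and at 6.89 to 7.43 in ctrl libraries, and the miR-24 5p ratio overlaps between the groups.

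Arms of the chr8 cluster were also compared with each other, and only the ratio of miR-24-2-5p to miR-27a-3p was called. This comparison was added after the values were seen. It was fitted over 1069 pairs of tested miRNAs from different hairpins within 10 kb on the same strand. Only miRNAs whose name gives a single hairpin were used, so miR-24-3p was left out for both clusters. Of these pairs 9.26% were called, and in 27.4% the groups did not overlap. The ratio of miR-24-2-5p to miR-27a-3p was 0.309, 0.320 and 0.318 in caNrf2 libraries, against 0.194, 0.227 and 0.214 in ctrl libraries. The caNrf2 libraries were all higher, with a log2 difference of 0.58 ± 0.096 SE (limma adjusted p = 0.00363). Without ctrl library 3 the adjusted p was 0.0533. Against miR-23a-3p the difference was smaller, with ratios of 0.724, 0.818 and 0.729 in caNrf2 and 0.614, 0.617 and 0.607 in ctrl libraries and an adjusted p of 0.0620 (limma, log2 difference 0.30 ± 0.095 SE). miR-24-2-5p against miR-27a-5p (log2 difference 0.37, limma adjusted p = 0.0736), miR-27a-3p against miR-23a-3p (-0.27, 0.0901) and miR-27a-5p against miR-23a-3p (-0.070, 0.786) did not pass either, although the groups did not overlap in the first 2 of these. Leaving out caNrf2 library 1 brought miR-24-2-5p against miR-23a-3p past the threshold (adjusted p = 0.0413).

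In the chr13 cluster 0 of 8 pairs were called by limma, at the adjusted threshold or at an unadjusted p under 0.05, with log2 differences from -0.23 to 0.062 and adjusted p of at least 0.573. For the abundant arms the intervals were narrow enough to bound a difference. The ratio of miR-27b-3p to miR-23b-3p was 41.2, 50.5 and 45.0 in caNrf2 libraries and 49.6, 46.8 and 47.9 in ctrl libraries, a log2 difference of -0.084 with an interval from -0.30 to 0.14. For pairs with miR-23b-5p or miR-24-1-5p the intervals were wide, the lowest bound being -0.89 and the highest 0.66.

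**Figure D5:**
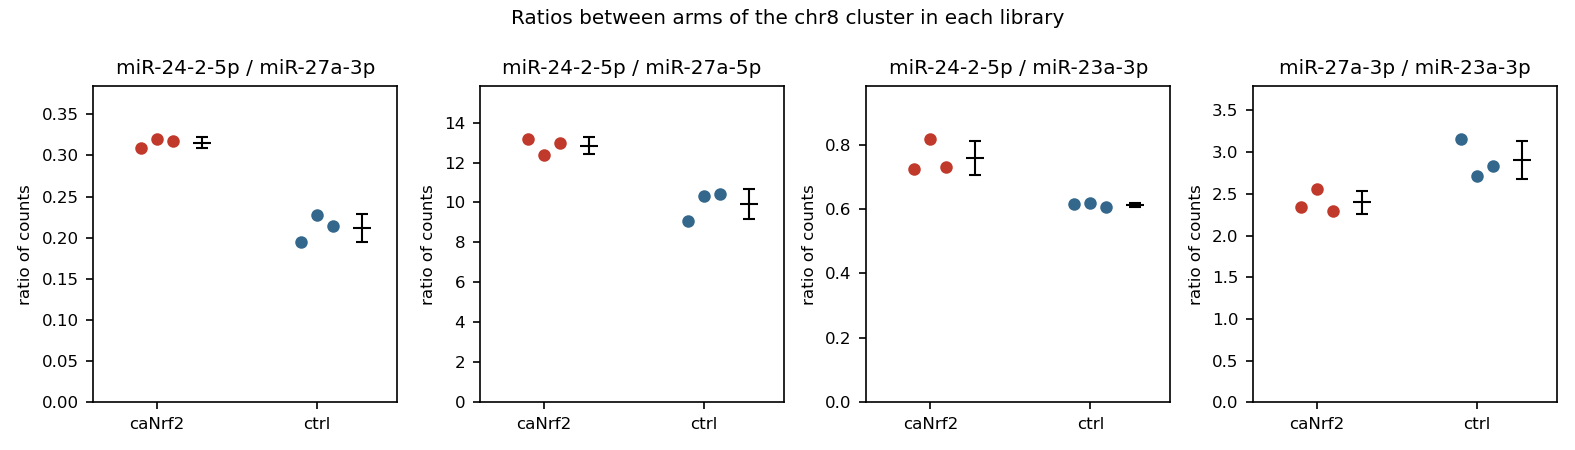
Ratio of counts between arms of the chr8 cluster (vertical axes from 0) in the 3 caNrf2 libraries (red, left) and the 3 ctrl libraries (blue, right), with mean and SD in black. The ratio of miR-24-2-5p to miR-27a-3p is 0.309 to 0.320 in caNrf2 and 0.194 to 0.227 in ctrl libraries. Only this ratio passed the test. The groups are separate in all 4 ratios shown, as in 27.4% of all pairs fitted. They overlap in the ratio of miR-27a-5p to miR-23a-3p, which is not shown.

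Within a hairpin, the balance of the arms was compared in the same way over all 250 pairs of a 5p and a 3p arm, of which 0.8% were called and 18.4% did not overlap between the groups. None of the 5 member pairs was called (limma; 0 of 5 also at an unadjusted p under 0.05). The count of miR-27a-5p per count of miR-27a-3p was 0.0234, 0.0259 and 0.0245 in caNrf2 libraries and 0.0214, 0.0220 and 0.0206 in ctrl libraries, separate but with an adjusted p of 0.448 by limma. For miR-27b the log2 difference was 0.15, with an interval from -0.094 to 0.38 (limma adjusted p = 0.622). The ratio of miR-24-2-5p to miR-24-3p had a log2 difference of 0.27 (limma adjusted p = 0.448), which was 0.45 without caNrf2 library 1 (adjusted p = 0.00204).

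Other miRNAs related to the members by seed or known process were read from lists. miR-128-3p (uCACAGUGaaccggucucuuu in RefSeq, seed in capitals) shares the run ucacagug with miR-27, shifted by 1 base. It rose 1.33-fold, with 188 ± 4.02 CPM in caNrf2 and 142 ± 3.41 CPM in ctrl fibroblasts (SD, n = 3 each; edgeR adjusted p = 0.00551). The 4 other miRNAs with the miR-24-3p seed were at 0 counts in all libraries. Of 16 tested miRNAs linked to fat cell differentiation or lipid handling, a list that pools promoters and inhibitors and leaves out the members, 7 fell and 0 rose by edgeR and by DESeq2 (1 was higher at an unadjusted p under 0.05 in each). That is 43.8% called, against 25.7% of all tested miRNAs called in either direction and 11.6% called lower. The median log2 fold change of the 16 was -0.24, against 0.033 over all tested miRNAs. The list was chosen with earlier results of these data known and holds both arms of miR-378a, so these values are no test of it. The smallest p were those of miR-148a-3p (9576 ± 509 CPM in caNrf2 and 14799 ± 989 CPM in ctrl, edgeR adjusted p = 6.77e-04), miR-30c-5p (1395 ± 29.3 and 1961 ± 89.5 CPM, 8.16e-04), miR-130b-3p (206 ± 34.4 and 316 ± 29.3 CPM, 0.00457) and miR-130a-3p (1971 ± 4.03 and 2477 ± 165 CPM, 0.00892). Of 12 tested vessel-growth miRNAs, 1 rose, miR-17-5p (1.26-fold, edgeR adjusted p = 0.0216), and 2 fell, miR-130a-3p and miR-378a-3p, which are also on the lipid list, and the list had a median of 0.0018 on the log2 scale. The share called, 25%, was near the 25.7% of all tested miRNAs and is no result about this list.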

How the data were processed

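The deposited files hold raw counts of reads per mature miRNA, 1 library each, with no normalization recorded. Per the submitters' processing notes, CASAVA 1.8, cutadapt, Bowtie, featureCounts, edgeR and the mm10 build were used. Their order and settings, with strand and reads fitting several hairpins, are not given in the sources used. Intervals cover counting and replicate error only; no molecular identifiers are named. A value of 3 counts equals 0.107 to 0.289 CPM.

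The counts went into edgeR 4.0.16 under R 4.3.3 (TMM factors, filterByExpr at a minimum count of 10, quasi-likelihood test, Benjamini-Hochberg adjustment over 697 miRNAs, threshold 0.05). SEs came from the F statistic. Count ratios (prior count 0.5) were tested with limma 3.58.1 with a trended variance, adjusted over all pairs of a kind. Both were tried on simulated data with larger changes than those called among the members and their ratios, so recovery of changes of this size was not tried. DESeq2 1.42.0, limma-voom, other scalings and filters, a replicate block and each library left out were alternatives. The members and lists were chosen with earlier results of these data known. All members and other arms of their hairpins are named, with the 3 abundant miRNAs (100 CPM or more) of most similar profile and, of each list, up to 4 miRNAs with the smallest p; other miRNAs were named after their values were seen.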

Additional observations from a re-analysis of the deposited data

How the results depend on the processing

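The count of members called higher was 3 or 4 and that of members called lower 0 in all 14 alternatives. Over all miRNAs, the count called higher was 98, between 60 and 121, with 60 of 371 at a mean of at least 10 CPM. Without a variance trend in limma the miR-27b-3p to miR-27a-3p ratio was still called, but with an adjusted p of 0.0404. The calls were lost for the miR-23b-3p to miR-23a-3p ratio (adjusted p = 0.182, log2 difference 0.34) and the miR-27b-5p to miR-27a-5p ratio (0.0729, 0.47). Leaving out libraries gave log2 differences from 0.28 to 0.41 and from 0.40 to 0.53 for these. Reversed signs were seen only for values not called. With a library left out, miR-24-3p ranged from -0.030 to 0.31, miR-27a-5p from -0.051 to 0.096, the miR-23b arm ratio from -0.14 to 0.23 and the miR-24-1-5p to miR-24-3p ratio from -0.030 to 0.31; the miR-23b arm ratio was also -0.16 with a prior count of 5 and -0.058 with array weights. The deviations of same-numbered libraries from their group means had correlations of 0.179, 0.165 and -0.217, and those of differently numbered ones from -0.378 to 0.331. Same-numbered libraries were not treated as pairs. With a replicate block 4 members were called higher and no paralog or arm ratio changed its call, but of the chr8 ratios miR-24-2-5p to miR-23a-3p (adjusted p = 0.0241), miR-24-2-5p to miR-27a-5p (0.0318) and miR-27a-3p to miR-23a-3p (0.0468) passed the limma threshold. The causes were not tested. The depth limits miR-23b-5p and miR-24-1-5p, with 7 to 91 counts a library.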

Other observations

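The fifth arm of the chr8 cluster, miR-23a-5p, had 6, 12 and 13 counts in caNrf2 libraries and 5, 8 and 8 counts in ctrl libraries, too few to be tested. Antisense hairpins, Mir3074-1 and Mir3074-2, overlap Mir24-1 and Mir24-2. On the opposite strand their 3p arms face the 5p arms of Mir24-1 and Mir24-2, and miR-3074-5p faces miR-24-3p. miR-3074-1-3p had 13, 32 and 39 counts in caNrf2 libraries and 10, 25 and 29 counts in ctrl libraries, fewer than miR-24-1-5p in each. miR-3074-2-3p had at most 4 counts in any library, against 8516 to 30146 of miR-24-2-5p. miR-3074-5p had 89, 172 and 150 counts in caNrf2 libraries and 54, 126 and 143 counts in ctrl libraries. miR-24-3p had 6876 to 14257 counts. Whether counting used the strand is not given in the sources used here. If it did not, reads of an antisense arm and of the miR-24 arm it faces cannot be told apart.

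Among 187 other miRNAs with at least 100 CPM, likeness was measured as the root mean square difference of centred log2 CPM over the 6 libraries. The profile nearest to miR-27b-3p was that of miR-17-5p (0.0378), followed by miR-186-5p (0.0699) and miR-19b-3p (0.0783), all nearer than its cluster neighbour miR-23b-3p (0.0978). Nearest to miR-23b-3p were miR-17-5p (0.0897), miR-128-3p (0.101) and miR-328-3p (0.113), of which only miR-17-5p was nearer than its cluster neighbour miR-27b-3p (0.0978). Nearest to miR-27a-3p were miR-872-5p (0.0458), miR-1983 (0.0648) and miR-872-3p (0.0683), and nearest to miR-23a-3p were miR-103-3p (0.0474), miR-151-3p (0.0539) and miR-28a-5p (0.0557). miR-24-3p had no profile as near, the closest being miR-193a-3p (0.158), miR-145a-5p (0.164) and miR-18a-5p (0.172).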
